A study of Mus musculus with 16 samples.

Results

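Livers of progeroid mice fed a diet with less fat and more carbohydrate were compared by RNA sequencing with livers of mice kept on the AIN93G reference diet. The comparison took the 4 libraries titled low fat - high carb and the 4 titled AIN93G control, 8 of the 16 libraries of the series, and began with all 54752 genes of the count table. All animals were male Ercc1 d/- mice of the strain F1 Hybrid C57BL6J/FVBN and were 11 weeks old. They ate AIN93G until 8 weeks of age and then either stayed on it (control) or were moved to 1 of 3 altered diets, each eaten freely and balanced in calories. The labels give the low-fat diet as 70% for fat and about 112% for carbohydrate. Direct comparisons were also made with 4 libraries of a low-protein diet (protein 70%, carbohydrate about 112%) and 4 of a high-protein diet (protein about 194%, carbohydrate 70%). Every group carries the Ercc1 defect, a truncated allele over a null allele of a nucleotide excision repair endonuclease subunit, so the comparison describes diet within repair-deficient animals and holds no repair-proficient mice.

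In liver, carbohydrate and insulin raise the transcription of sugar-handling and fatty acid synthesis genes through the regulators ChREBP (Mlxipl) and SREBP-1c (Srebf1). Fatty acids act on the nuclear receptor PPAR-alpha (Ppara), whose targets carry out fatty acid oxidation in mitochondria and peroxisomes and ketone body synthesis. Cholesterol is made under SREBP-2 and leaves the liver as bile acids, whose classical synthesis starts with Cyp7a1, or through the canalicular sterol transporter formed by Abcg5 and Abcg8.

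Expression is given in CPM (depth-scaled counts, with TMM scaling of the libraries), which removes differences in depth but not in gene length. Library totals were 35243594 to 46051218 counts in control and 36871852 to 112789127 with low fat, where low fat 2 was the deepest. Hepatocyte markers were tested for all 14 genes of the list, with a median difference of -0.13 (log2, low fat minus control), 6 higher and 8 lower, against a median of -0.02 over all 17833 genes tested. The level of Ercc1 itself was 1.89, 1.29, 1.96 and 1.41 CPM in controls 1 to 4 and 1.72, 1.46, 1.42 and 2.01 CPM in low fat 1 to 4, so the groups overlapped.

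Control 4 stood apart in overall expression, and control 3 in its level of kidney transcripts. On the main axis of a principal component analysis of the 8 libraries, which held 45.8% of the variance, control 4 scored 148 while the other 7 lay between -41.9 and 10.4. On the next axis, with 25.4% of the variance, controls 1 and 2 scored 60.8 and 73.2 and the other 6 libraries, control 3 among them, lay between -56.6 and 15.5. In control 4 the level of Tat, a tyrosine-degrading enzyme induced in fasting, was 21329 CPM against 938 to 1214 CPM in the other controls. Igfbp1, an insulin-repressed secreted protein, reached 9721 CPM there against 68.1 to 133 CPM in the other controls. The kidney level was highest in control 3. Summed over 24 genes of the nephron, such as Umod and Kap, it was 179, 91.7, 4532 and 338 CPM in controls 1 to 4. It was 1020, 1553, 2895 and 2697 CPM in low fat 1 to 4, and all 24 genes were counted in every one of the 8 libraries. The kidney level differed by 2.24 on the log2 scale (two-sided exact permutation p = 0.143, smallest possible 0.0286), and by 3.41 without control 3 (exact permutation p = 0.0286). That last p is the smallest possible and was fixed by leaving out control 3, since controls 1, 2 and 4 lay below every low-fat library. The part of kidney transcripts in the gene results was not tested beyond a fit with the kidney level as a covariate. Results that rest on 1 of these controls are given without it too.

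**Figure D1:**
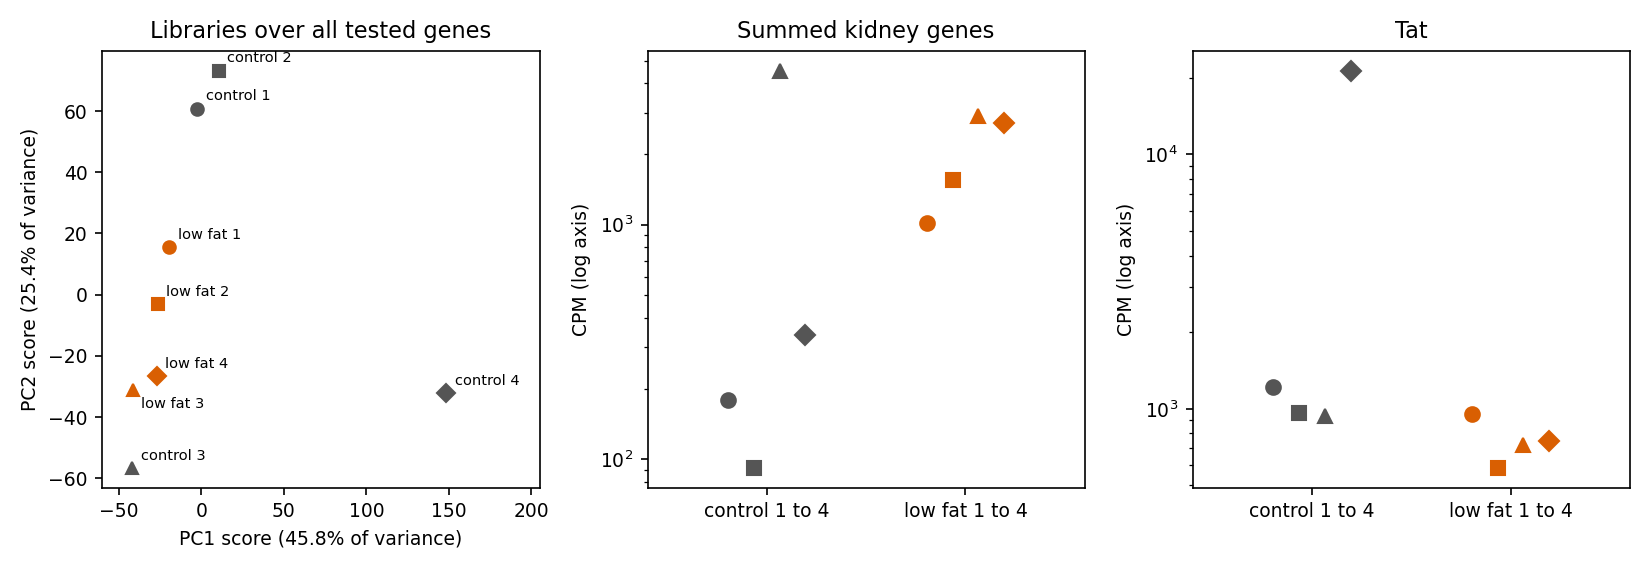
Scores of the 8 libraries on the first and second principal components of log2 CPM (left), and summed kidney genes (middle) and Tat (right) in CPM on log axes; each point is 1 library and its shape gives the replicate number. Control 4 lies alone at a score of 148 on the horizontal axis and at 21329 CPM for Tat, and control 3 has the highest kidney level, 4532 CPM.

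No gene passed the test between low fat and control (edgeR quasi-likelihood test, Benjamini-Hochberg adjusted p under 0.05; 0.0% of 17833 genes, smallest adjusted p 0.53). At an unadjusted p under 0.05 there were 1644 genes, 551 higher with low fat (3.09%) and 1093 lower (6.13%), shares against which the counts of list members below are to be read. The 4 low-fat libraries lay wholly above the 4 controls for 227 genes (1.27%) and wholly below them for 235 (1.32%). With libraries assigned to the diets at random, each of the 70 assignments is equally likely. Only a single assignment separates the groups of a gene in a given direction, and both shares lie below the rate this gives. Groups that do not overlap, as given for genes below, therefore do not by themselves show a diet difference. DESeq2, run as an alternative, called 4 genes: Slc7a2, AB124611, Gm14097 and 4930544F09Rik. Both Gm14097 and 4930544F09Rik were named after their values were seen. The low-fat animals varied less than the controls. The median standard deviation per gene was 0.261 log2 units with low fat and 0.520 in control, and 0.284 in control without control 4.

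Leaving out control 3 raised the number of genes past the threshold to 109 (0.606% of 17973 genes), of which 103 were higher and 6 lower with low fat. For all 103 of the higher genes control 3 had been the highest control, and for 89 of them it was the highest of the 8 libraries. In all 103 genes the low-fat libraries were above controls 1, 2 and 4, which the call itself favours. The kidney level too was highest in control 3 and lowest in controls 1, 2 and 4. None of the 109 is on the kidney list itself, but its 24 genes are a selection that does not cover all genes expressed in kidney. Those 24 genes were then all above 0 with a median of 3.0. Whether these calls follow the kidney transcripts was not tested. At an unadjusted p under 0.05 there were then 3664 genes (20.4%). Without control 4 no gene passed (0.0%), 439 were higher (2.43%) and 569 lower (3.15%) at an unadjusted p under 0.05, and 46.7% of estimates were above 0. Without controls 3 and 4 together none passed either (0.0%), and 2337 had an unadjusted p under 0.05 (12.7%). All values below therefore describe differences in which no gene passed the adjusted threshold in the fit with 4 controls; the adjusted p of every gene named was 0.53 or higher.

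Of the bile acid and sterol export genes, Cyp7a1, Abcg5 and Abcg8 were lower in every low-fat library than in every control, while the list had no common direction. Cyp7a1 (chromosome 4, 6265612 to 6275633, GRCm38), the rate-limiting enzyme of bile acid synthesis, was at 266, 325, 162 and 170 CPM in controls 1 to 4 and at 36.0, 35.3, 36.2 and 136 CPM in low fat 1 to 4. All low-fat libraries were below all controls, and 3 of them lay close together while low fat 4 approached the lower controls. The group means were 231 ± 78.5 and 60.8 ± 50.0 CPM (SD, n = 4). The fitted difference was -1.93 (SE 0.67), with an unadjusted edgeR p of 0.0113. It was -2.08 without control 4 and -2.05 without control 3.

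The transporter genes Abcg5 (chromosome 17, 84658234 to 84683011) and Abcg8 (chromosome 17, 84676302 to 84700333) lie head to head and encode the 2 parts of 1 sterol exporter. The stretch between their RefSeq start sites (GRCm38.p6, chr17:84683012-84683120, plus strand) is shown because this 109-base stretch is upstream of both genes, which differed in the same direction here. Capitals mark TTATC, the reverse complement of GATAA, the core bound by GATA factors:
Abcg5-Abcg8: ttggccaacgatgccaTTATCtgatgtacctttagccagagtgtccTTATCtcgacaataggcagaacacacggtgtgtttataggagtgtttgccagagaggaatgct
Searched on both strands, GATAA occurred 2 times in it, both on the minus strand. Of 32851 RefSeq promoter stretches of the same length, 9.36% held at least 1 match and 0.788% held as many. In the GENCODE annotation used for names, the models of these genes overlap, so reads from the overlap cannot be told apart without the strand setting of the counting.

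Abcg5 was at 213, 193, 175 and 530 CPM in controls 1 to 4 and at 129, 140, 135 and 133 CPM in low fat 1 to 4. The low-fat libraries were tightly grouped below every control, and control 4 was far above the rest. The difference of -1.05 (SE 0.31, unadjusted p = 0.00433) was -0.56 without control 4. Abcg8 was at 174, 175, 138 and 627 CPM in control and 126, 113, 137 and 96.1 CPM with low fat. Its groups did not overlap, but control 3 and low fat 3 nearly touched. The difference of -1.24 (SE 0.38) was -0.49 without control 4. Cyp39a1, which hydroxylates an oxysterol for bile acid synthesis, was at 306 CPM in control 4 and 24.4 to 28.0 CPM in the other controls, against 9.24 to 25.7 CPM with low fat; its difference of -2.39 was -0.57 without control 4. Of the 27 bile acid and sterol export genes tested, 16 were below and 11 above 0. At an unadjusted p under 0.05, 6 were lower and 2 higher. Wholly below the controls lay 3 (background 1.32%), namely Cyp7a1, Abcg5 and Abcg8, and the last 2 may share reads. Their median was -0.12, and -0.08 without control 4.

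Most genes of cholesterol synthesis had estimates below 0, by small amounts that depended on single libraries. Of 28 tested, 22 had estimates below 0 and 6 above, with a median of -0.14, while 47.6% of all genes had estimates above 0. Lanosterol synthase, Lss, which closes the sterol rings, was at 70.8, 53.9, 63.6 and 63.7 CPM in control and 51.1, 40.8, 46.3 and 49.5 CPM with low fat. These groups did not overlap, and the difference of -0.43 (SE 0.13, unadjusted p = 0.00558) was -0.45 without control 4 and -0.40 without control 3. Hsd17b7, a later enzyme of the pathway, differed by -0.42 (SE 0.13), with 64.9 to 92.3 CPM in control and 50.2 to 67.9 CPM with low fat. The list as a whole was low in control 4, whose median deviation from the mean of the 8 libraries was -1.44. Without that control 24 of 28 genes were below 0, the median was -0.40, and 10 genes were lower at an unadjusted p under 0.05 (background 3.15%). Without control 3 instead, 17 were below and 11 above 0, with a median of -0.05. With each library left out in turn the median ran from -0.40 to 0.01, so its direction is not firm.

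**Figure D2:**
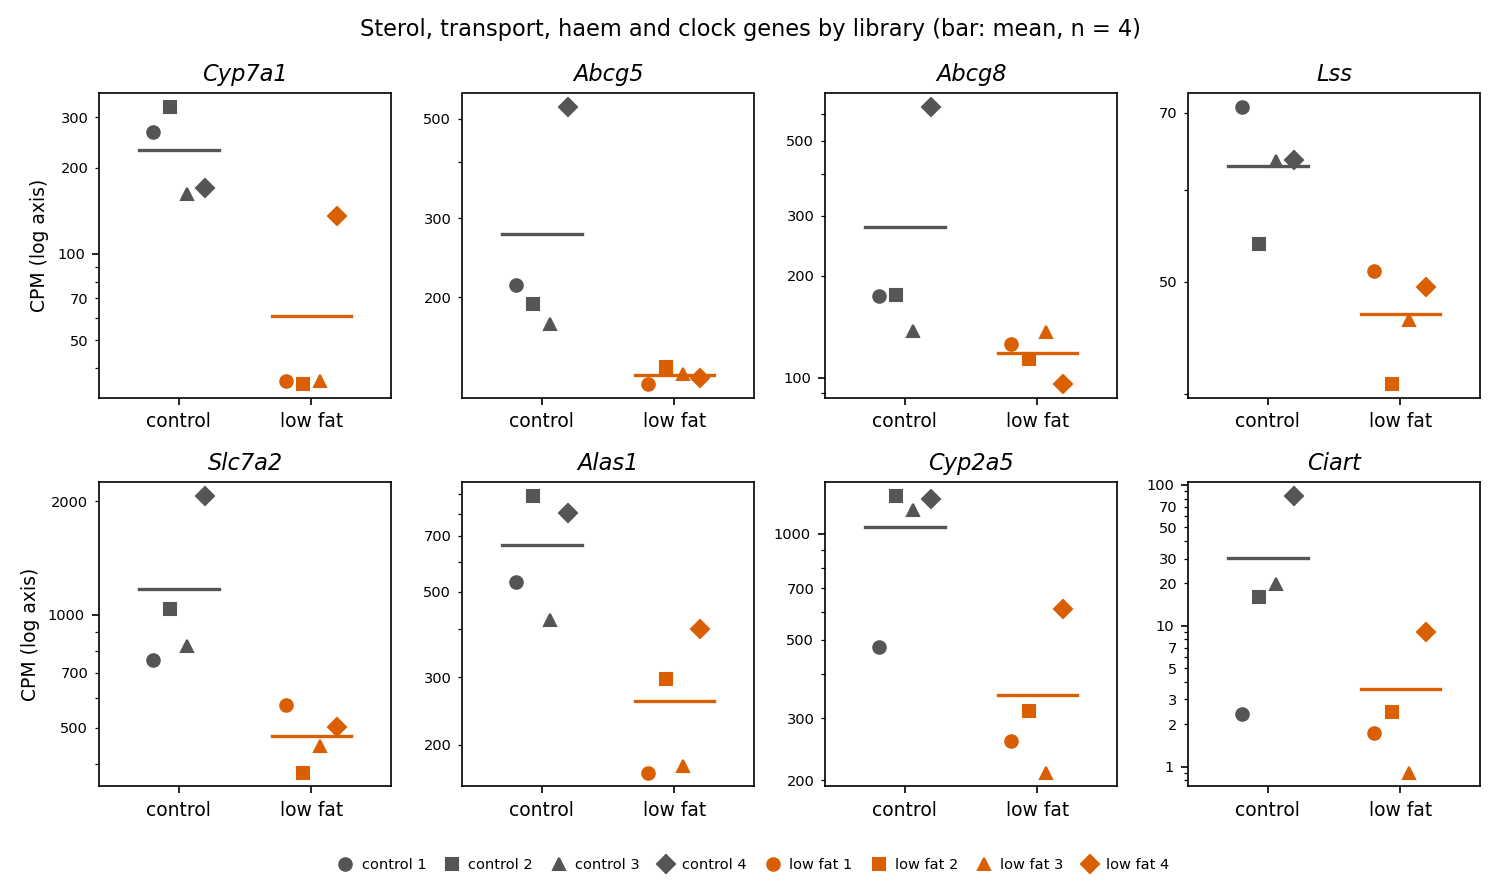
CPM on log axes of 8 genes, with each library as a point whose shape gives the replicate number and the mean of 4 as a bar. All low-fat points of Cyp7a1, Abcg5, Abcg8, Lss, Slc7a2 and Alas1 lie below all control points, while Cyp2a5 and Ciart overlap through control 1.

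Fatty acid synthesis genes gave no common direction. Of 22 lipogenesis genes tested, 9 were above and 13 below, with a median of -0.09, 1 lower at an unadjusted p under 0.05, and no gene whose groups were apart. Fasn, which builds palmitate, was at 1167, 520, 983 and 139 CPM in control and at 592, 573, 512 and 792 CPM with low fat. The low-fat values lay inside the control range, with control 1 the highest and control 4 the lowest library. Its difference was -0.19 (SE 0.51), -0.55 without control 4 and 0.15 without control 1. Acly, which supplies cytosolic acetyl-CoA, was at 255 to 510 CPM in controls 1 to 3, 64.3 CPM in control 4 and 182 to 336 CPM with low fat. The difference was -0.32 (SE 0.45), and -0.68 without control 4. Acaca, the cytosolic acetyl-CoA carboxylase, was at 129 to 193 CPM in controls 1 to 3 and at 123 to 134 CPM with low fat. Its difference of 0.05 turned to -0.31 without control 4, where it stood at 28.8 CPM. Leaving out control 4, the list had 16 of 22 genes below 0, a median of -0.26 and 4 genes lower at an unadjusted p under 0.05.

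Desaturation and chain extension genes also overlapped between diets. Scd1, which makes oleate from stearate, was at 3527, 2312, 2633 and 383 CPM in control and 4915, 5775, 2061 and 2263 CPM with low fat. Low fat 1 and 2 exceeded every control, while low fat 3 and 4 lay below 3 of the controls. The difference was 0.76 (SE 0.61), and 0.38 without control 4. Elovl5, which lengthens polyunsaturated fatty acids, was at 117 to 404 CPM in control and 214 to 484 CPM with low fat, a difference of 0.64 (SE 0.33). Fads1 and Fads2, the desaturases of that pathway, differed by 0.15 and 0.05, and by -0.15 and -0.22 without control 4. Elovl6, which lengthens palmitate, was at 8.26 CPM in control 4 against 170 to 211 CPM in the other controls and 102 to 178 CPM with low fat. Of 21 genes tested, 14 were above 0 with a median of 0.10. Without control 4, 8 were above 0 and the median was -0.10.

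Of the lipogenic regulators, Srebf1 was at 315, 187, 281 and 107 CPM in control and 97.9, 156, 216 and 287 CPM with low fat, and its groups overlapped throughout (difference -0.23, SE 0.48). Mlxipl, the gene of ChREBP, was at 293, 247, 194 and 238 CPM in control and 387, 316, 389 and 276 CPM with low fat. Only low fat 4 fell within the control range, and the difference was 0.49 (SE 0.25, unadjusted p = 0.0699). Without control 4 it was 0.45.

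Among sugar-handling genes, Ldha, lactate dehydrogenase, differed by 0.44 (SE 0.15), with 394 to 668 CPM in control and 611 to 724 CPM with low fat. Pfkfb3, which makes an activator of glycolysis, was at 17.1 to 40.8 CPM in control and 8.03 to 28.7 CPM with low fat, a difference of -1.11 (SE 0.38) and -1.14 without control 4. Pklr, the liver pyruvate kinase and a ChREBP target, was at 232 to 275 CPM in controls 1 to 3 and 177 to 228 CPM with low fat. Its difference of 0.03 turned to -0.36 without control 4, which held 28.3 CPM. Over the 24 genes of sugar sensing and glycolysis, 12 were above and 12 below 0.

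Glycogen genes differed in opposite directions. Gys2, the liver glycogen synthase, was at 148, 381, 273 and 237 CPM in control and 144, 124, 123 and 180 CPM with low fat. Only control 1 reached down into the low-fat range, and the difference was -0.86 (SE 0.29, unadjusted p = 0.00847), -0.93 without control 4. Ppp1r3c, which targets a phosphatase to glycogen, was at 35.9, 11.9, 14.9 and 12.7 CPM in control and 52.4, 49.2, 61.8 and 9.74 CPM with low fat. Low fat 4 was the lowest of all 8 libraries while the other low-fat libraries were the highest, and the difference was 1.20 (SE 0.54). Of 15 glycogen genes, 9 were below 0 with a median of -0.10.

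Peroxisomal genes were among those with the smallest p-values on the higher side. Pxmp4 (chromosome 2, 154585758 to 154603708), a peroxisomal membrane protein, was at 76.7, 55.6, 58.4 and 51.1 CPM in control and 150, 115, 95.3 and 81.0 CPM with low fat. All low-fat libraries were above all controls, and the difference was 0.87 (SE 0.22, unadjusted p = 0.00128), 0.77 without control 4 and 0.87 without control 3. Crot, which passes chain-shortened fatty acids out of peroxisomes as carnitine esters, was at 815, 376, 299 and 197 CPM in control and 1679, 1732, 871 and 498 CPM with low fat. Only control 1 and low fat 4 crossed, and the difference was 1.50 (SE 0.43, unadjusted p = 0.00312), 2.83-fold, with 1.24 without control 4. Acaa1b, a peroxisomal thiolase, was at 511, 424, 470 and 209 CPM in control and 758, 941, 551 and 611 CPM with low fat. Its groups did not overlap, and the difference of 0.83 (SE 0.26) was 0.58 without control 4. Vnn1, a pantetheinase induced by PPAR-alpha, was at 21.9, 17.9, 29.4 and 11.0 CPM in control and 37.3, 42.8, 30.1 and 37.7 CPM with low fat. Control 3 and low fat 3 nearly met, and the difference of 0.88 (SE 0.27) was 0.65 without control 4.

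Other PPAR-alpha targets overlapped between the diets. Cyp4a14, a microsomal fatty acid hydroxylase, was at 190 to 282 CPM in controls 1 to 3 and 3416 CPM in control 4, against 117 to 634 CPM with low fat. Its difference was -1.38 (SE 0.94), and 0.72 without control 4. Pdk4, which shuts pyruvate dehydrogenase in fasting, was at 8.71, 3.36, 4.40 and 65.5 CPM in control and 22.3, 24.2, 19.3 and 7.91 CPM with low fat. The difference of -0.15 was 1.72 without control 4 (0.07 with upper-quartile scaling of all libraries), since low fat 1 to 3 exceeded controls 1 to 3 but not control 4. Fgf21, a hormone made by liver, was at 0.668, 1.23, 0.0940 and 0.0921 CPM in control and 2.58, 7.38, 0.675 and 1.51 CPM with low fat. These are few counts, and the difference of 2.57 had an SE of 0.98. Ppara itself differed by 0.06 (SE 0.18), at 56.0 to 104 CPM in control and 75.3 to 110 CPM with low fat. Of the 28 targets tested, 18 were above and 10 below 0 (22 and 6 with upper-quartile scaling), with a median of 0.13. At an unadjusted p under 0.05, 5 were higher, Crot, Acaa1b, Vnn1 and Fgf21 among them, and none lower (3.09% of all genes were higher). The median was 0.27 without control 4, with 6 higher.

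In mitochondria, 20 of 25 fatty acid oxidation genes were above 0, with a median of 0.13, and 20 without control 4. Cpt2, which reforms acyl-CoA inside the inner membrane, was at 125, 117, 113 and 78.7 CPM in control and 148, 149, 132 and 137 CPM with low fat. The groups did not overlap, but the gap was narrow and the difference was 0.38 (SE 0.14), 0.23 without control 4. Cpt1a, the entry enzyme, differed by -0.12 (SE 0.15) and was highest in control 4 at 565 CPM. Of 7 ketone body genes, 6 were above 0, with a median of 0.37 and 0.30 without control 4.

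**Figure D3:**
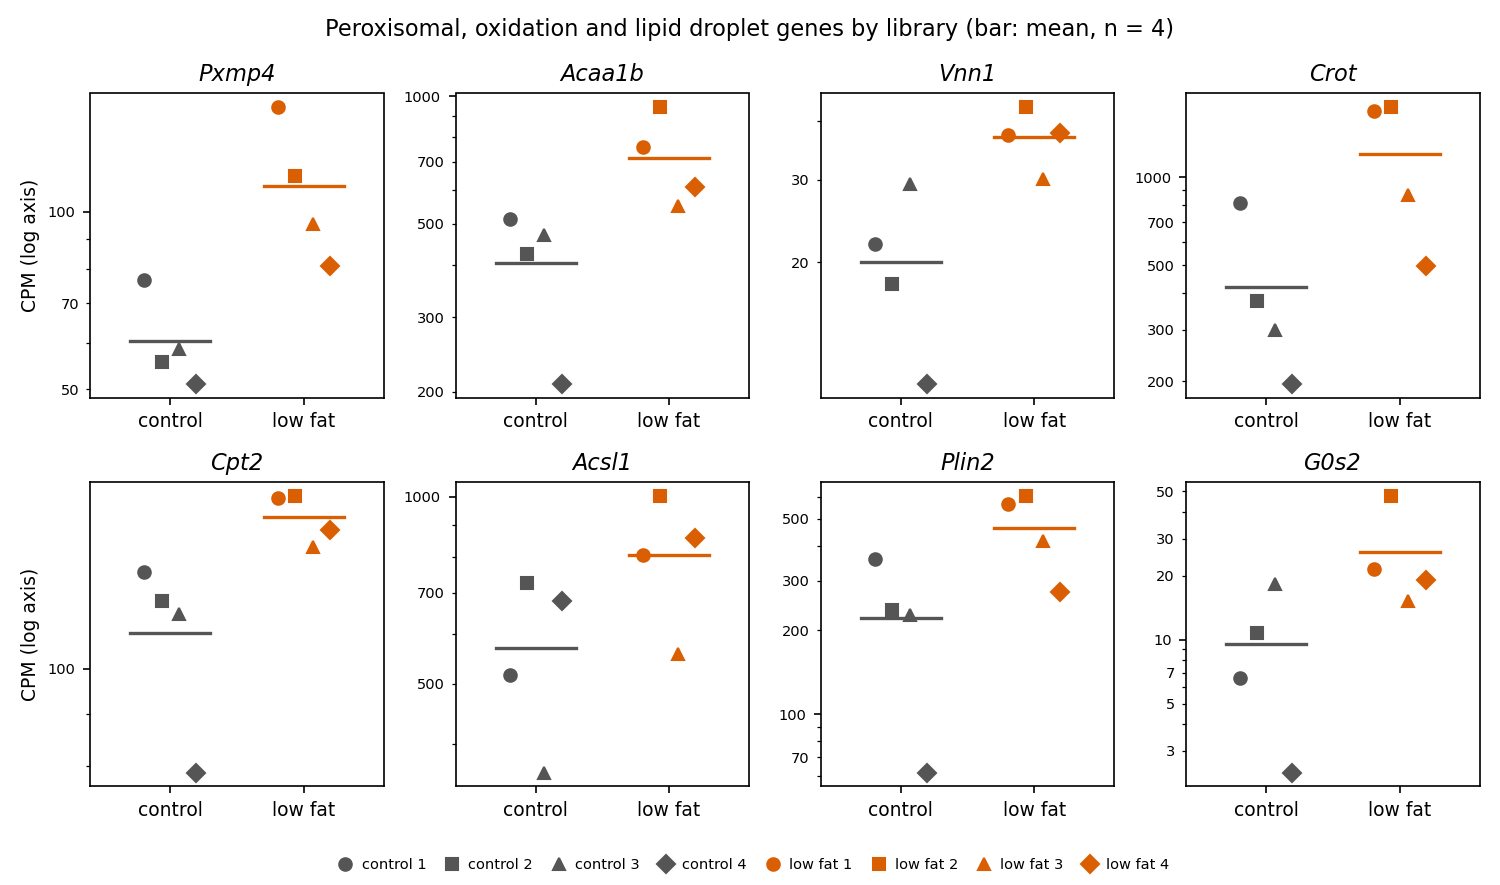
CPM on log axes of 8 genes of peroxisomes, fatty acid oxidation and activation and lipid droplets, with each library as a point whose shape gives the replicate number and the mean of 4 as a bar. Low-fat points lie above all controls for Pxmp4, Acaa1b, Vnn1 and Cpt2, and the diets overlap for Crot, Acsl1, Plin2 and G0s2.

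Lipid droplet genes were split by control 4. Plin2, the coat protein of liver lipid droplets, was at 358, 236, 226 and 61.8 CPM in control and 565, 603, 416 and 274 CPM with low fat. Only control 1 and low fat 4 crossed, and the difference was 1.08 (SE 0.40, unadjusted p = 0.0160), 0.74 without control 4. G0s2, an inhibitor of the lipase Pnpla2, was at 6.62, 10.8, 18.4 and 2.36 CPM in control and 21.6, 47.5, 15.3 and 19.1 CPM with low fat, a difference of 1.44 (SE 0.52). Pnpla2 itself was at 975 CPM in control 4 and 62.5 to 99.9 CPM in the other controls, against 51.9 to 97.5 CPM with low fat. Its difference was -1.91 with control 4 and -0.04 without it. Lpin1, Gpat4 and Mfsd2a had differences of -2.03, -1.29 and -2.93, which were -0.32, -0.22 and -0.69 without control 4. Acsl1, which activates long-chain fatty acids, differed by 0.50 (SE 0.24), while Acsl4, which prefers arachidonate, differed by -0.67 (SE 0.25). Cd36, a fatty acid uptake receptor, differed by 0.06 (SE 0.29).

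Genes of glucose production and of the fasted state were at lower levels with low fat chiefly against control 4. Of 19 gluconeogenesis genes, 17 were below 0 with a median of -0.77, and 11 were lower at an unadjusted p under 0.05. Without control 4 the median was -0.17 and none was lower at that p. Pck1, the enzyme that commits oxaloacetate to glucose, was at 2181, 2626, 2729 and 16339 CPM in control and 2801, 2062, 1786 and 2462 CPM with low fat. Got1, the cytosolic aspartate aminotransferase, was at 333, 573, 386 and 7401 CPM in control and 409, 194, 171 and 258 CPM with low fat. For Pck1 the low-fat libraries overlapped controls 1 to 3, while for Got1 low fat 2 to 4 were below all controls. The differences of -1.39 and -3.07 were -0.17 and -0.77 without control 4. Of 20 insulin and FoxO signalling genes, 18 were below 0 (median -0.40), but 9 without control 4 (median 0.02). Sesn1, a FoxO and p53 target, was at 382 CPM in control 4 and at 12.3 to 14.2 CPM in the other controls. The low-fat libraries held 12.1 to 17.0 CPM of it, and its difference of -2.90 was 0.05 without control 4. Igfbp1 went from -3.80 to 0.80.

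**Figure D4:**
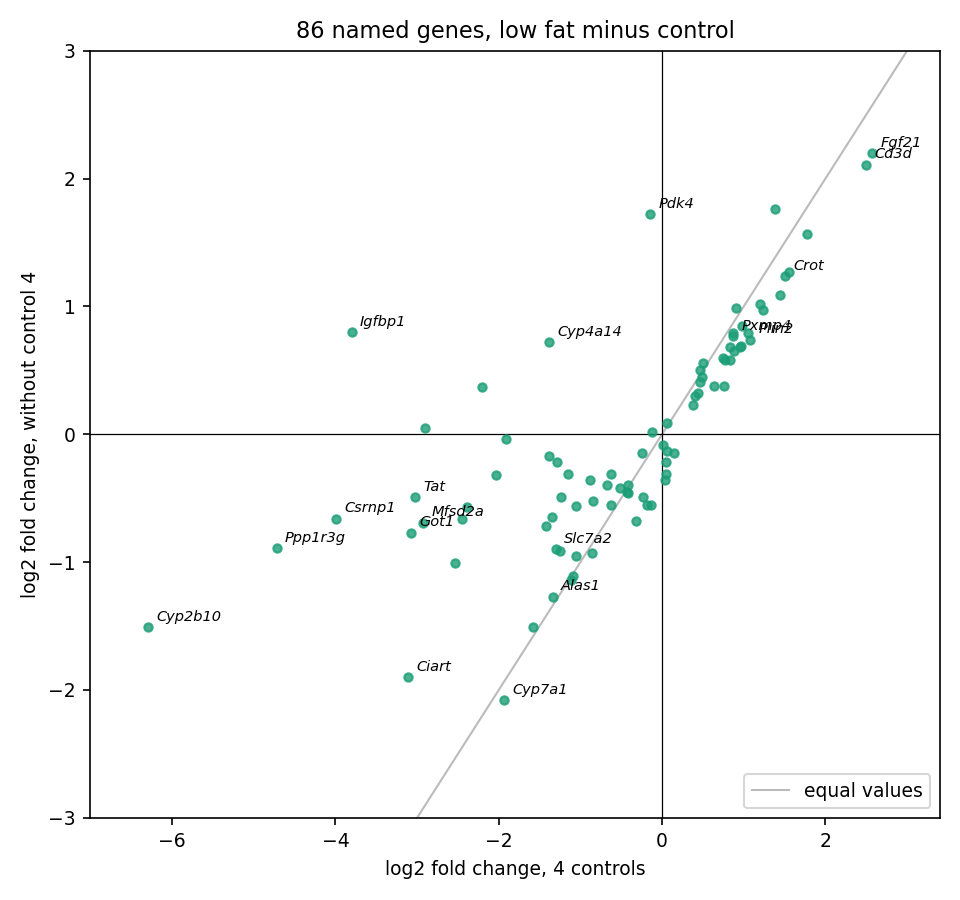
Log2 fold change (low fat minus control) of 86 genes with all 4 controls (horizontal) and without control 4 (vertical); the grey line marks equal values. Cyp7a1, Alas1, Crot and Pxmp4 lie near the line, whereas Igfbp1, Tat, Got1, Csrnp1 and Cyp2b10 lie far from it.

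Among genes of nitrogen handling, Slc7a2 (chromosome 8, 40862396 to 40922308), a transporter that brings arginine and lysine into hepatocytes, was at 755, 1035, 827 and 2064 CPM in control and 575, 380, 447 and 504 CPM with low fat. Every low-fat library was below every control. The difference of -1.30 (SE 0.29, unadjusted p = 0.000378) was -0.90 without control 4, and it passed the threshold without control 3 (-1.39, edgeR adjusted p = 0.0452) and in DESeq2 (-1.32, adjusted p = 0.0469). The urea cycle genes Ass1 and Cps1 differed by -0.88 and -0.63, and by -0.36 and -0.31 without control 4. Of 60 amino acid catabolism genes, 43 were below 0, with a median of -0.10 (37 below with upper-quartile scaling), and 16 were lower at an unadjusted p under 0.05, against 3 without control 4. Asns, asparagine synthetase, was at 1.68 to 3.75 CPM in control and 0.745 to 2.32 CPM with low fat, a difference of -1.09 (SE 0.36).

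Alas1 and most drug-metabolising genes were at lower levels with low fat, while the haem synthesis list as a whole was evenly split. Alas1 (chromosome 9, 106233455 to 106248654), the rate-limiting enzyme of haem synthesis, was at 529, 888, 424 and 803 CPM in control and 169, 296, 176 and 401 CPM with low fat. The groups did not overlap, with low fat 4 just under control 3, and the difference of -1.34 (SE 0.40, unadjusted p = 0.00448) was -1.27 without control 4 and -1.48 without control 3. Cpox, a later enzyme of the pathway, differed by 0.40 (SE 0.18). Of 13 haem synthesis genes, 7 were above and 6 below 0, with a median of 0.01 and 1 higher and 1 lower at an unadjusted p under 0.05. Without control 4, 2 were above and 11 below, with a median of -0.10 and 1 higher and 2 lower. Cyp2a5, which hydroxylates coumarin and belongs to a family of near-identical copies whose shared reads make its count uncertain, was at 478, 1278, 1166 and 1251 CPM in control. It was at 259, 314, 210 and 612 CPM with low fat, so control 1 lay below low fat 4, and the difference was -1.58 (SE 0.45), -1.51 without control 4. Cyp2b10 was at 32.9 CPM in control 4 and at 0.207 to 0.435 CPM in the other controls, against 0.0233 to 0.159 CPM with low fat. Of 33 drug-metabolising genes, 28 were below 0 with a median of -0.52 and 9 lower at an unadjusted p under 0.05. The median was -0.16 without control 4 and 1 was lower.

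Most clock genes had estimates below 0, but control 1 lay among the low-fat libraries. Of 22 tested, 19 were below 0 with a median of -0.82, and 9 were lower and 1 higher at an unadjusted p under 0.05. Ciart, a repressor of the clock, was at 2.35, 16.0, 19.9 and 83.2 CPM in control and 1.72, 2.45, 0.908 and 9.08 CPM with low fat. Control 1 fell among the low-fat libraries, and the difference was -3.11 (SE 0.89), -1.90 without control 4. Per1, a core clock repressor, was at 18.8, 44.7, 52.5 and 340 CPM in control and 23.1, 12.8, 13.9 and 28.5 CPM with low fat, a difference of -2.54 (SE 0.73) and -1.01 without control 4. Without control 4 the median of the list was -0.38, with 11 lower and 3 higher at an unadjusted p under 0.05. Median deviations of the list were -0.37, 0.15, 0.13 and 1.04 in control and -0.46, -0.31, -0.35 and -0.14 with low fat. The labels do not give the hour of tissue collection.

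Most genes of the endoplasmic reticulum stress response had estimates above 0, but the libraries of the diets overlapped. Of 23 tested, 21 were above 0 with a median of 0.46, and 9 were higher at an unadjusted p under 0.05 (background 3.09%). Creld2, an endoplasmic reticulum chaperone, was at 33.7, 49.8, 15.0 and 12.2 CPM in control and 78.2, 164, 27.0 and 55.0 CPM with low fat. Low fat 3 lay below controls 1 and 2, and the difference was 1.55 (SE 0.54). Hyou1, a chaperone of the same compartment, was at 223, 202, 114 and 76.8 CPM in control and 313, 535, 198 and 229 CPM with low fat, a difference of 1.05 (SE 0.38). Controls 3 and 4 had the lowest values of both genes and low fat 2 the highest. The median deviation of the list from the mean of the 8 libraries was 0.13, 0.05, -0.54 and -0.61 in control. It was 0.34, 0.63, -0.04 and 0.03 with low fat, so low fat 3 and 4 lay below controls 1 and 2. Without control 4 the median was 0.31 with 2 genes higher, and with each library left out in turn it ran from 0.30 to 0.61.

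Most immune cell markers had estimates above 0, though summed Kupffer and B cell markers overlapped between the diets. In bulk tissue, more cells of a type and more RNA per cell cannot be told apart. Ptprc, the common leukocyte antigen CD45, was at 5.55, 5.30, 6.71 and 3.99 CPM in control and 8.66, 11.4, 8.64 and 7.46 CPM with low fat. All low-fat libraries were above all controls, and the difference was 0.75 (SE 0.20, unadjusted p = 0.00165), 0.60 without control 4 and 0.89 without control 3. Mean levels of Ptprc were 5.39 CPM in control, 9.04 with low fat, 8.26 with low protein and 7.78 with high protein. Low fat differed by 0.13 (SE 0.19) from low protein and by 0.22 (SE 0.19) from high protein. The 14 T and NK cell markers tested were all above 0 with a median of 1.02, and 6 were higher at an unadjusted p under 0.05 (background 3.09%). Without control 4 all 14 were above 0, the median was 0.88 and 4 were higher (background 2.43%). Their summed level was 6.53, 6.63, 9.51 and 3.56 CPM in control and 10.1, 18.0, 11.0 and 11.3 CPM with low fat. Cd3d, a T cell receptor chain, was at 0.116, 0.140, 0 and 0 CPM in control and 0.365, 0.293, 0.489 and 0.291 CPM with low fat, which are few counts. Of 13 Kupffer cell markers, 11 were above 0 with a median of 0.40, and Csf1r, the receptor for macrophage growth factor, differed by 0.46 (SE 0.16). The summed Kupffer level was 369, 419, 442 and 257 CPM in control and 425, 598, 439 and 402 CPM with low fat. Controls 2 and 3 were thus above low fat 4. B cell markers were above 0 for 10 of 12 with a median of 0.74, and Cd79a, a part of the B cell receptor, differed by 1.38 (SE 0.48). At an unadjusted p under 0.05, 3 were higher, and 1 without control 4. The summed B cell level was 10.1, 7.47, 13.9 and 6.13 CPM in control. It was 11.5, 12.6, 14.6 and 27.1 CPM with low fat, so control 3 was above low fat 1 and 2.

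Kidney transcripts were also more abundant in low-fat libraries than in controls 1, 2 and 4. With the kidney level as a covariate the T and NK cell median was 0.97, the Kupffer cell median 0.32 and the B cell median 0.59. That of the cholangiocyte list went from 0.34 to 0.11, with 9 of 14 genes above 0, and that of the kidney list from 0.64 to -0.17. Cholangiocyte markers, several of which kidney tubules also express, were above 0 for 12 of 14 with a median of 0.34, and 1.33 without control 3. Their summed level was 152, 133, 575 and 90.3 CPM in control and 203, 263, 401 and 347 CPM with low fat, highest in control 3 like the kidney level. Interferon response genes were above 0 for 38 of 39, with a median of 0.48 and 10 higher at an unadjusted p under 0.05. Control 4 was the lowest library for them, with a median deviation of -1.46, and without it the median was 0.26 with 6 higher. Low fat 2 was the highest library, with a median deviation of 0.69. The rest overlapped, at 0.15, -0.05 and 0.07 in controls 1 to 3 and 0.07, 0.10 and 0.29 in low fat 1, 3 and 4. Oas3, an antiviral enzyme, was at 0.900, 0.644, 0.996 and 0.307 CPM in control and 1.56, 3.12, 1.05 and 1.01 CPM with low fat, a difference of 1.24 (SE 0.42).

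**Figure D5:**
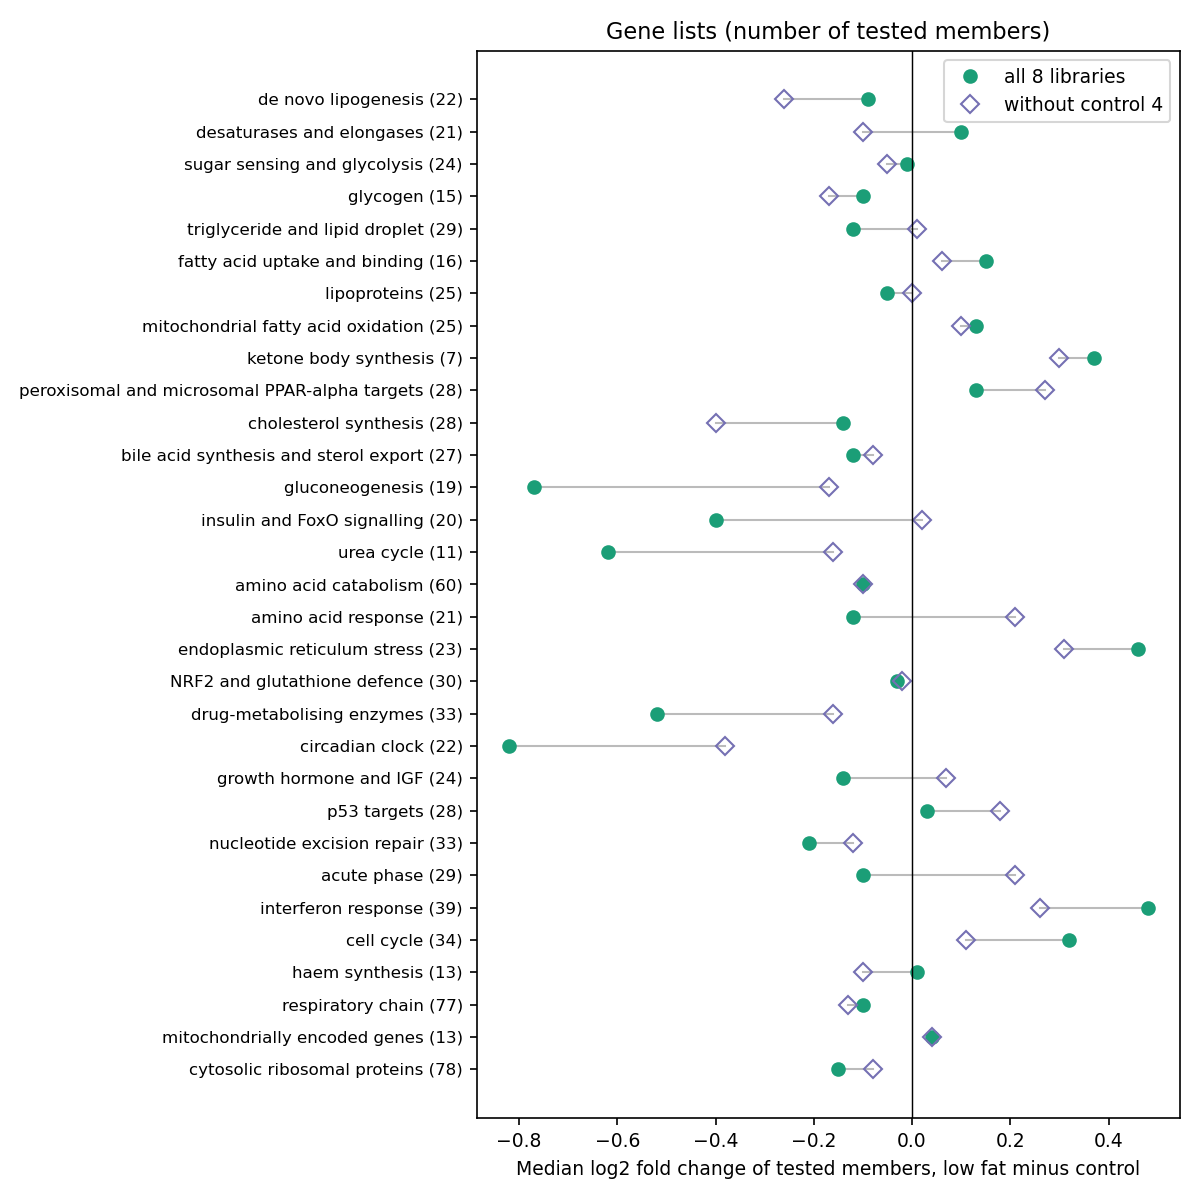
Median log2 fold change (low fat minus control) of the tested members of 31 gene lists, with all 8 libraries (filled circles) and without control 4 (open diamonds); the number of tested members is in brackets. Gluconeogenesis moves from -0.77 to -0.17 without control 4. Endoplasmic reticulum stress is above 0 in both settings shown (0.46 and 0.31) and cholesterol synthesis below 0 (-0.14 and -0.40). Without control 3, not shown, the cholesterol synthesis median was -0.05.

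Among the genes with the smallest p-values outside these groups, some differed evenly across the libraries and others differed chiefly against control 4. Eln, elastin of the vessel wall, was at 3.28, 3.11, 2.67 and 2.58 CPM in control and 5.11, 6.22, 5.07 and 4.82 CPM with low fat. The difference of 0.87 (SE 0.20, unadjusted p = 0.000485) was 0.79 without control 4 and 0.85 without control 3. AB124611 was at 1.23 to 1.75 CPM in control and 2.20 to 3.05 CPM with low fat (difference 0.90, SE 0.19), and Plcb2, a phospholipase C of blood cells, at 1.01 to 1.63 and 2.17 to 2.96 CPM (0.98, SE 0.25). Prmt9, an arginine methyltransferase, was at 18.8, 19.3, 15.4 and 24.5 CPM in control and 14.8, 14.4, 12.2 and 12.8 CPM with low fat. Its difference of -0.52 (SE 0.13) passed the threshold without control 3 (-0.59, edgeR adjusted p = 0.0427). The groups of these 4 genes did not overlap. Mean levels of AB124611 were 1.42 CPM in control, 2.65 with low fat, 2.43 with low protein and 2.42 with high protein. In the same order they were 2.91, 5.30, 4.52 and 2.96 CPM for Eln and 1.30, 2.56, 2.06 and 1.73 CPM for Plcb2. For Prmt9 they were 19.5, 13.6, 16.5 and 14.9 CPM. Csrnp1, a nuclear protein induced by axin, was at 7.72, 13.9, 15.3 and 468 CPM in control and 6.28, 6.85, 9.24 and 9.47 CPM with low fat, a difference of -3.99 (SE 1.02) and -0.66 without control 4. Zfp275, a zinc finger protein, and Fam53b differed by -1.35 (SE 0.36) and -1.42 (SE 0.38), and by -0.65 and -0.72 without control 4. The smallest p of all genes belonged to 4930544F09Rik, at 0.581 to 1.14 CPM in control and 0.0782 to 0.303 CPM with low fat, a difference of -2.35 (SE 0.51, unadjusted p = 0.000293).

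In the DNA repair background of these mice, 23 of 33 nucleotide excision repair genes were below 0 with a median of -0.21, and 6 were lower and 1 higher at an unadjusted p under 0.05 (background 6.13% and 3.09%). Without control 4, 26 were below 0 with a median of -0.12, and 5 were lower and 1 higher (background 3.15% and 2.43%). Ercc8, which acts in repair at polymerases stalled on damaged DNA, was at 5.34, 3.81, 4.83 and 6.11 CPM in control and 3.23, 3.60, 2.58 and 3.57 CPM with low fat. The groups did not overlap, and the difference of -0.63 (SE 0.18) was -0.55 without control 4. Mean levels of Ercc8 were 5.02 CPM in control, 3.25 with low fat, 3.55 with low protein and 3.28 with high protein, so it was lower with each altered diet. Brca1, of recombination repair, was at 3.66, 5.07, 4.98 and 9.95 CPM in control and 2.58, 2.63, 2.05 and 2.67 CPM with low fat, a difference of -1.25 (SE 0.32) and -0.91 without control 4. Fas, a death receptor and p53 target, was at 13.4, 11.8, 10.4 and 13.9 CPM in control and 19.8, 18.8, 14.0 and 16.0 CPM with low fat, a difference of 0.47 (SE 0.15). Of 28 p53 targets, 15 were above 0 with a median of 0.03, and 3 were higher and 5 lower at an unadjusted p under 0.05. Without control 4, 22 were above 0 with a median of 0.18, and 6 were higher and none lower. The series title names a decline of transcription with gene length, so estimates were also grouped by genomic length. Their medians were 0.01 under 10 kb, -0.03 from 10 to 30 kb, -0.04 from 30 to 60 kb, -0.04 from 60 to 100 kb, -0.01 from 100 to 200 kb and 0.05 over 200 kb (0.16 in this last class without control 3).

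Low-fat libraries were also set against those of the other diets, in the fit of all 16 libraries, where the controls still enter the estimate of the spread. Against low protein, the other diet raised in carbohydrate, no gene passed the threshold (0.0%; 425 genes, 2.38%, at an unadjusted p under 0.05). Against high protein, the diet with less carbohydrate, none passed in that fit (0.0%, smallest adjusted p 0.277; 1620, 9.08%, at an unadjusted p under 0.05), while 16 passed in edgeR with only the groups compared, 1 without high-protein 3, and 81 in DESeq2. Cyp7a1 was at 60.8 ± 50.0 CPM with low fat, 83.5 ± 46.5 with low protein and 308 ± 215 with high protein (SD, n = 4 each). The low-fat level differed by -0.46 (SE 0.65) from low protein and by -2.34 (SE 0.68) from high protein. Alas1 was at 260 ± 110 CPM with low fat, 233 ± 112 with low protein and 1029 ± 409 with high protein. It differed by 0.16 (SE 0.40) and -1.98 (SE 0.41). Slc7a2 showed the same order of differences, -0.24 (SE 0.28) from low protein and -1.33 (SE 0.29) from high protein, with 477 ± 82.7, 565 ± 75.4 and 1200 ± 329 CPM. Cyp2a5 was lowest with low fat, at 349 ± 181 CPM, against 730 ± 96.5 with low protein (-1.06, SE 0.44) and 1968 ± 1284 with high protein (-2.50, SE 0.46).

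Of the lipid genes, Crot was at 1195 ± 609 CPM with low fat, 958 ± 201 with low protein and 668 ± 206 with high protein, with differences of 0.32 (SE 0.42) and 0.84 (SE 0.42). Acaa1b was at 715 ± 174, 726 ± 202 and 582 ± 97.5 CPM, with differences of -0.02 (SE 0.26) and 0.30 (SE 0.26). Fasn differed by 0.13 (SE 0.51) from low protein and by 1.46 (SE 0.52) from high protein, where it stood at 225 ± 76.0 CPM against 617 ± 122 with low fat. Over the lipogenesis list the median was 0.12 against low protein and 0.67 against high protein. Lss was at means of 63.0 CPM in control, 46.9 with low fat, 51.1 with low protein and 41.8 with high protein. Those of Cpt2 were 108, 142, 147 and 154 CPM. Lss was thus lower and Cpt2 higher than in control with each altered diet. The fatty acid oxidation medians were -0.07 against low protein and -0.19 against high protein, and those of the PPAR-alpha targets -0.02 and -0.07. None of these differences passed the adjusted threshold in the fit of all 16 libraries.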

How the data were processed

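Liver RNA of 16 mice was sequenced from directional libraries. The count table deposited by the authors gives raw whole-number reads per gene and library. It was made with Trimmomatic 0.39 for trimming, STAR 2.7.0f and featureCounts (Subread 1.6.4) on GRCm38.p6, tools that the submitters' processing notes name beside edgeR 3.32.1. The strand setting and the annotation release are not stated, so overlapping antisense genes cannot be told apart. GENCODE M21 supplied symbols for 53861 identifiers with version and 862 without it, and 29 stayed unmatched.

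Groups came from the sample titles. The 17833 genes passing filterByExpr were fitted in edgeR 4.0.16 (R 4.3.3; TMM, quasi-likelihood, 4 group means, all 16 libraries, 12 residual degrees of freedom), tested two-sided and adjusted by Benjamini-Hochberg at 0.05. Fold changes are log2. Their SE was derived from the test, as the absolute fold change divided by the square root of the quasi-likelihood F. Principal components used log2 CPM with a prior count of 2. Pairs of replicates differed beyond sampling noise, with a chi-square of at least 51.2 per degree of freedom. Nothing in the labels ties animals to litters or cages, so a p-value measures only how these samples spread. The kidney level was tested by exact permutation of 70 assignments.

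The settings also run were DESeq2 1.42.0, RLE and upper-quartile factors, limma-voom (3.58.1) with sample quality weights, no filter, over 1 CPM in at least 4 libraries, only the groups compared, each library left out, a replicate block and a kidney covariate. Leaving out controls 3 and 4 together was chosen after seeing the data. The steps were tested on simulated data.

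The comparison, the 45 gene lists and the genes were chosen with earlier results of these data known. Genes named are the 15 protein-coding genes of at least 1 CPM with the smallest p, used since none passed, up to 4 per lipid or sugar list and 2 per other list by p, and 25 lipid and control genes fixed by name. Gm14097 and 4930544F09Rik were chosen after their values were seen. Some genes of the rule are not reported here.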

Additional observations from a re-analysis of the deposited data

Results flagged for a closer look

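In 176 groups of 4 libraries examined (each named gene, the library totals and the kidney level, in each diet), 32 had 1 library farther from the rest, as a share of the range, than Dixon's 95% limit allows. For independent groups of normally distributed values chance gives this in about 1 in 20. The CPM values used here need not be normal, and many of the genes were named for a small p in these data. The count of 32 is therefore not to be read against that rate. Control 4 was that library in 25 of the 32.

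Control 4 was high for genes of amino acid use and glucose production: Tat at 21329 CPM, Got1 at 7401 CPM, Sds, a serine-degrading enzyme, at 2140 CPM, Pck1 at 16339 CPM and Ass1 at 9956 CPM. It was high for genes of insulin and FoxO signalling, with Igfbp1 at 9721 CPM, Foxo1 at 195.5 CPM and Sesn1 at 382 CPM. In lipid metabolism it was high for Lpin1 at 3886 CPM, Pnpla2 at 975 CPM, Gpat4 at 1191 CPM, Mfsd2a at 537 CPM, Cpt1a at 565 CPM, Cyp4a14 at 3416 CPM and Pdk4 at 65.5 CPM. It was high for sterol genes, with Abcg5 at 530.0 CPM, Abcg8 at 627 CPM and Cyp39a1 at 306 CPM. Control 4 was also high for Txnip at 3652 CPM, Ppp1r3g at 546 CPM, Per1 at 339.9 CPM, Csrnp1 at 468 CPM, Zfp275 at 39.5 CPM and Cyp2b10 at 32.9 CPM. Fads1 was low in it, at 224 CPM.

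The other 7 were spread over both diets. Control 1 was high for Ppp1r3c at 35.9 CPM, and low for Cyp2a5 at 478 CPM. Low fat 4 was high for Cyp7a1 at 136 CPM and Zfp275 at 8.31 CPM, and low fat 3 was low for Brca1 at 2.05 CPM. Low fat 2 had the largest total, 112789127 counts. Control 3 had the highest kidney level, 4532 CPM.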

How the results depend on the processing

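The count of 0 genes past the threshold between low fat and control held under RLE and upper-quartile factors, limma-voom, either filter, only the groups compared, the kidney covariate and without controls 3 and 4 together. It was 4 in DESeq2, and from 0 to 109 (without control 3) when 1 library was left out. Against low protein it was 0 under every alternative run. Against high protein it was 81 in DESeq2, 1 in limma-voom and 16 with only the groups compared, and 0 to 1 when 1 library was left out (1 without high-protein 3). The kidney difference ran from 1.53 to 3.41 (without control 3). The causes were not tested.

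Replicate numbers are shared between the diets, but the deviations of same-numbered libraries correlated by 0.258, 0.129, 0.301 and 0.071, and only number 2 and number 3 matched best with their own number, so the numbers were not taken as pairs. With a replicate block no gene passed in any of the 3 comparisons, and the kidney difference of 2.24 had an exact sign-flip permutation p of 0.25.

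Of 86 genes named, 70 kept their direction in every alternative and 16 did not. With limma-voom the estimate was -0.23 for Acaca, 0.13 for Acacb, -0.05 for Fads1, -0.14 for Fads2, -0.23 for Pklr, 0.67 for Txnip, 0.06 for Cpt1a, 0.64 for Cyp4a14, 1.70 for Pdk4, -0.05 for Ppara, 0.56 for Igfbp1 and -0.02 for Ercc1. Without controls 3 and 4 it was -0.34 for Acaca, 0.11 for Acacb, -0.13 for Fads1, -0.19 for Fads2, -0.33 for Pklr, 0.08 for Txnip, 0.05 for Cpt1a, 0.74 for Cyp4a14, 1.61 for Pdk4, -0.06 for Ppara, 0.61 for Igfbp1 and 0.09 for Sesn1. The kidney covariate gave -0.09 for Cd36 and -0.02 for Ercc1, which was -0.03 in DESeq2 and -0.01 with RLE factors. Pdk4 was 0.98 with the replicate block and 0.07 with upper-quartile factors. When 1 library was left out, estimates ran from -0.55 to 0.15 for Fasn, -0.31 to 0.33 for Acaca, -0.55 to 0.10 for Elovl6, -0.15 to 0.26 for Fads1, -0.22 to 0.19 for Fads2, -0.36 to 0.20 for Pklr and -2.59 to 0.37 for Txnip. They ran from -0.05 to 0.24 for Cd36, -0.19 to 0.02 for Cpt1a, -1.73 to 0.72 for Cyp4a14, -0.51 to 1.72 for Pdk4, -0.13 to 0.16 for Ppara, -4.21 to 0.80 for Igfbp1, -3.28 to 0.05 for Sesn1 and -0.11 to 0.13 for Ercc1. For 12 of the 16 the sign changed without control 4.

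The scaling moved the median over all genes from -0.02 to -0.04 (RLE) and 0.04 (upper quartile), so lists with medians of that size have no firm direction. Few counts limit Fgf21 and Cd3d. Of the named genes, 2 passed the threshold in DESeq2 (Slc7a2 and AB124611) and 2 without control 3 (Slc7a2 and Prmt9).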

Other observations

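Most genes of translation and respiration had estimates slightly below 0, but the libraries of the diets overlapped. Of 78 cytosolic ribosomal protein genes, 75 were below 0 with a median of -0.15, and 68 with upper-quartile scaling (median -0.08). Of 77 respiratory chain genes, 66 were below 0 with a median of -0.10, and 52 with upper-quartile scaling (median -0.04). The 13 mitochondrially encoded genes had a median of 0.04, with 9 above 0. No ribosomal gene and 1 respiratory gene had an unadjusted edgeR p under 0.05. Median deviations of the ribosomal list were -0.07, 0.08, -0.03 and 0.35 in control and -0.02, -0.09, -0.38 and 0.20 with low fat. Those of the respiratory list were -0.07, 0.16, 0.07 and 0.05 in control and 0.07, -0.12, -0.29 and 0.10 with low fat. Low fat 3 was the lowest library for both lists.

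Cell cycle genes were above 0 for 24 of 34, with a median of 0.32, and 4 were higher and 1 lower at an unadjusted edgeR p under 0.05 (background 3.09% and 6.13%). Without control 4 the median was 0.11 with 18 above 0, and 1 was higher and 2 lower (background 2.43% and 3.15%). Cdk1, the mitotic kinase, was at 1.92, 1.49, 1.13 and 0.859 CPM in control and 3.21, 2.16, 2.35 and 1.46 CPM with low fat. Controls 1 and 2 were above low fat 4, and the difference was 0.77 (SE 0.29), 0.58 without control 4. Ccnb2, a mitotic cyclin, differed by 0.95 (SE 0.34). Hamp, the gene of the iron hormone hepcidin, was at 516, 409.9, 309 and 865 CPM in control and 352, 231, 224 and 367 CPM with low fat. Low fat 1 and 4 overlapped control 3, and the difference was -0.84 (SE 0.28), -0.52 without control 4.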
